A study of Mus musculus with 6 samples.

Results

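The genes described here encode the machinery that starts branched actin filaments and the partners through which the adaptors Nck1 and Nck2 reach it. They were listed by function, as members of the WASP and WIP proteins, the WAVE complex, the PAK kinases with GIT and PIX, the Rac and Ras exchange factors, the Arp2/3 complex, the podosome scaffolds and the phosphotyrosine signalling partners of Nck. Earlier results of these data were known when the list was made. Of the 42 genes listed, 37 had a probe set that the platform annotation gives to that gene alone, among 30702 genes measured in this way. A gene with several such probe sets was read from the brightest. Cyfip1, Pak1, Actr2, Arpc1b and Arpc3 had none and are not analysed here. The Arpc1b probe set is shared in the annotation with the pseudogene Gm5637.

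The study compared 2 conditionally immortalized mouse podocyte genotypes, wildtype and NCK1/2 knockout, each with 3 arrays described as independent replicates. Podocytes are the glomerular epithelial cells whose foot processes carry the filtration slits of the kidney. All cultures were grown on type I collagen, where they had 10 days to differentiate before total RNA was hybridized to Affymetrix arrays. The design text describes replicates of each line, so the effect of the knockout and any other difference between the lines cannot be told apart.

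Nck1 and Nck2 are adaptors built of SH3 domains and an SH2 domain. The SH2 domain binds phosphotyrosine, in podocytes on the slit diaphragm protein nephrin, and the SH3 domains bind proline-rich stretches of N-WASP, WIP, PAK and other effectors. N-WASP and the WAVE proteins, the former opened by Cdc42 and the latter by Rac, pass their activating tail to the Arp2/3 complex, which then starts a new filament on the side of an existing one. This pathway drives lamellipodia, podosomes and the rearrangement of foot processes.

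The levels are RMA values, log2 intensities after background correction, normalization over arrays and summary of the probes of a set, and they compare arrays for a gene, not genes with each other. Array medians over the genes tested lay between 7.08 and 7.22, and pairs of arrays correlated over genes at 0.993 to 0.997 in the same genotype and at 0.978 to 0.985 across genotypes. The probe set of Nck1 read 8.54, 8.74 and 8.62 in wildtype and 8.13, 8.17 and 8.06 in knockout, and that of Nck2 read 7.37, 7.62 and 7.45 against 7.25, 7.27 and 7.19. Both sets separate the genotypes, Nck2 without passing the test (limma adjusted p = 0.0941), and where they lie relative to the deleted parts is not known. Means of the 23 probe sets for background signal reached 7.78, and a mean at or below that value is called within the background range, as both Nck2 means were. The median of these 23 means was 4.48, and 62.9% of the genes tested had a mean over all arrays within the range. A mean within the range thus does not show that a transcript was absent. Of 9 podocyte markers measured, Nphs1, Wt1, Ptpro and Tcf21 were within the range in both lines. Synpo, Podxl, Cd2ap and Kirrel1 were above it and did not pass the test. The remaining marker, the phospholipase gene Plce1, rose from 6.81 ± 0.06, within that range, to 9.93 ± 0.04 (mean log2 intensity ± SD, n = 3 each), and the sum of the 9 ran from 71.8 to 72.2 in wildtype and from 75.02 to 75.14 in knockout arrays. Of the 9 markers of mesangial, smooth muscle and fibroblast cells 6 were higher in knockout, the sum of the 9 log2 intensities running from 67.8 to 68.7 in wildtype arrays and from 84.3 to 85.7 in knockout arrays, with Des, Myh11 and Itga8 within the background range in both lines. Of 9 tubule markers 4 were lower, the sum running from 77.0 to 78.3 and from 71.6 to 72.2. The part of these differences in the results below was not tested, and in such bulk RNA fewer cells of a type and less RNA per cell cannot be told apart.

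Most genes of the nucleation machinery did not pass the test between the lines, and in no complex did all measured genes change. Of the 37 genes, 3 rose, 4 fell and 30 did not pass at a Benjamini-Hochberg adjusted p of 0.05 in limma fitted over all genes. Wasf3, Abi2, Dock1 and Pak3 fell and Cbl, Abi1 and Arpc2 rose. Over all genes tested, 12.0% changed, 5.05% higher and 6.90% lower, and among the 11391 genes with a mean above the background range 23.5% changed, 10.1% higher and 13.5% lower. The members that changed make up 18.9% of those measured, and 6 of the 30 with a mean above the background range. That share lies between both backgrounds, so the count is no result about the list. The 3 wildtype and 3 knockout values did not overlap for 18 members, 9 in each direction. Over all genes 27.4% did not overlap, and 50.0% of the brighter ones. The median log2 fold change of the members was -0.02, beside 0.01 over all genes. With each array centred on its median, Abi1 (adjusted p = 0.0501), Cbl (0.0595), Pak3 (0.0736) and Arpc2 (0.0893) did not pass, while Wasf3, Abi2 and Dock1 did.

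**Figure D1:**
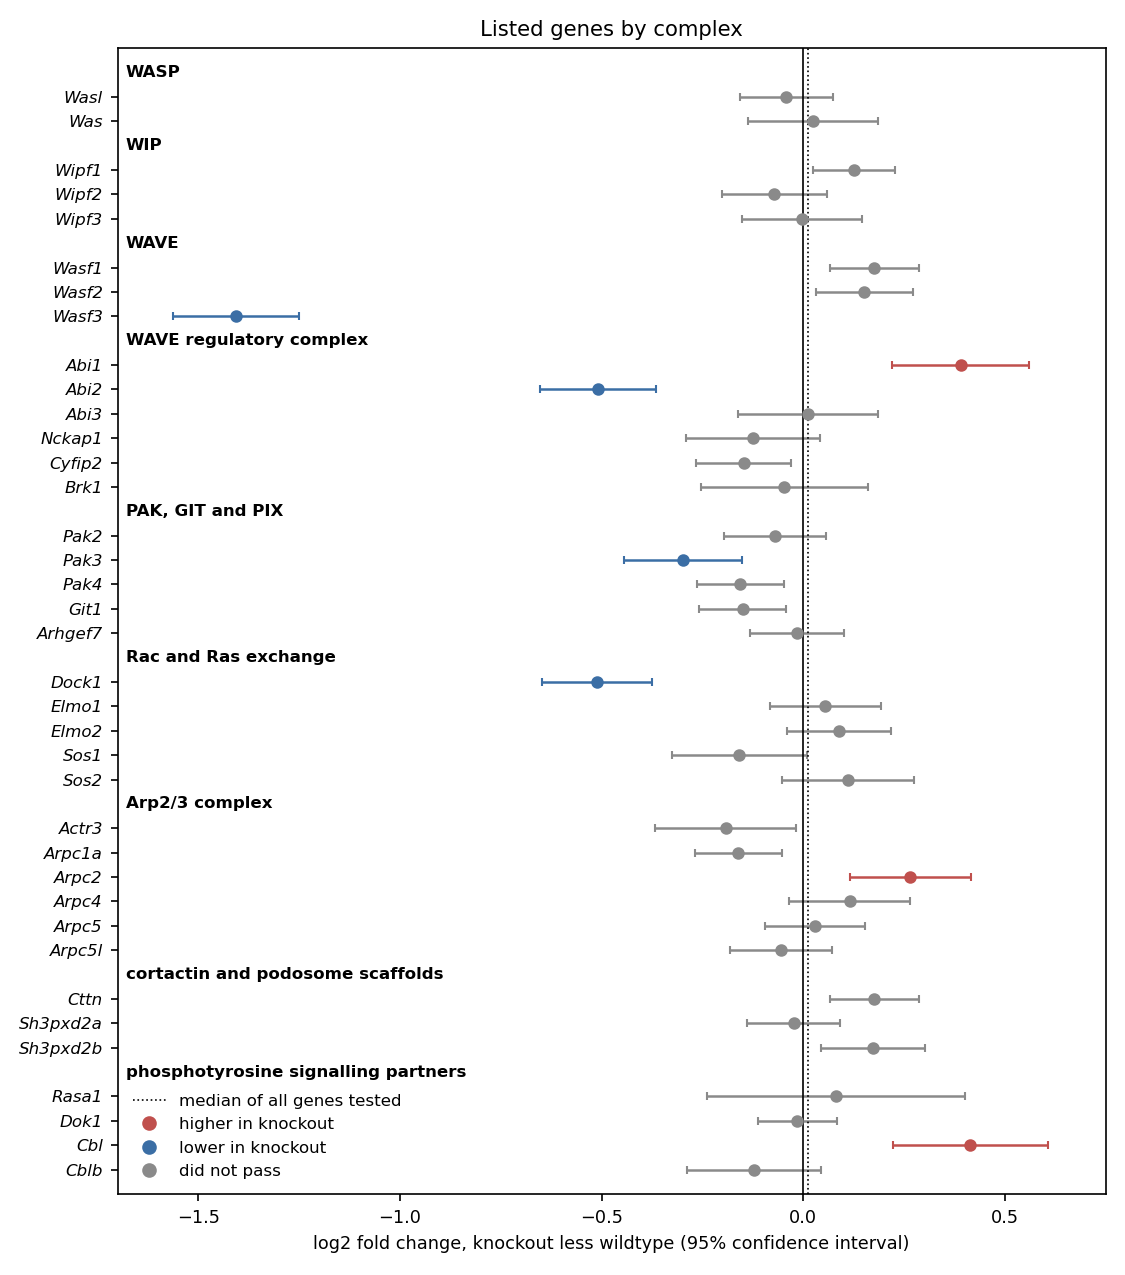
Log2 fold change of knockout over wildtype for the 37 measured members, grouped by complex, with 95% confidence intervals from limma (n = 3 arrays each). Wasf3 lies apart at -1.41, and the 30 members that did not pass lie between -0.19 and 0.18.

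The 30 members that did not pass differed by -0.19 to 0.18 on the log2 scale, and their 95% confidence intervals reached at most 0.40 in size, that of Rasa1. Intensity changes of 0.5 or more in either direction thus lay outside the interval of each of these 30 genes. The intervals hold gene by gene and were not adjusted for the number of genes. Both means of Was, Wipf3, Wasf1, Abi3 and Elmo1, and the knockout mean of Cyfip2, lay in the background range. There the measured difference can understate a change, so for these genes the intervals exclude no change of the transcript.

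The WAVE proteins bring the Arp2/3 complex to the plasma membrane at the leading edge, and of the 3 family genes Wasf3 fell. Its log2 intensity was 8.28, 8.35 and 8.17 in the wildtype arrays and 6.87, 6.80 and 6.92 in the knockout arrays. All 3 knockout values lay more than 1 log2 unit below the lowest wildtype value, and the knockout mean lay within the background range. The log2 fold change was -1.41 (SE 0.07, n = 3 each, limma adjusted p = 7.48e-05), a 2.65-fold lower level and the sole member change of 2-fold or more. It stayed between -1.46 and -1.32 and past the threshold in the 16 alternative settings in which it could be tested.

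Wasf2, the widely expressed WAVE protein gene, read 8.89, 8.94 and 8.92 in wildtype and 9.03, 9.04 and 9.14 in knockout. Wasf1, best known from neurons, read 7.23, 7.33 and 7.27 against 7.44, 7.44 and 7.47. For both genes each knockout value was above each wildtype value. The differences of 0.15 (95% confidence interval 0.03 to 0.27, limma adjusted p = 0.122) and 0.18 (0.06 to 0.29, adjusted p = 0.0596) did not pass. Without wildtype replicate 2 the difference of Wasf1 passed (0.20, adjusted p = 0.0317). Both Wasf1 means were within the background range.

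The WAVE proteins work in a regulatory complex with an Abi subunit, Nckap1, a Cyfip subunit and Brk1, and its Abi genes moved in opposite directions. Abi2 fell, with 9.06, 9.24 and 9.14 in wildtype and 8.69, 8.60 and 8.63 in knockout. Abi1 rose, with 9.55, 9.75 and 9.66 in wildtype and 10.02, 10.13 and 9.97 in knockout. Neither gene's groups overlapped. The log2 fold change of Abi2 was -0.51 (SE 0.06, limma adjusted p = 0.00283) and that of Abi1 was 0.39 (SE 0.07, adjusted p = 0.016). Abi2 kept its call when any array was left out (adjusted p from 0.00612 to 0.0217). Abi1 lost it without wildtype replicate 3 (adjusted p = 0.0725), knockout replicate 1 (0.0648) or knockout replicate 2 (0.0636).

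The other measured subunits of the complex did not pass. Nckap1, the scaffold that binds Cyfip, read 10.83, 10.93 and 10.91 in wildtype and 10.83, 10.83 and 10.64 in knockout, and Brk1, the smallest subunit, differed by -0.05 (95% confidence interval -0.25 to 0.16). Cyfip2, through which active Rac is sensed, read 7.75, 7.85 and 7.83 against 7.62, 7.70 and 7.67, with no overlap and a difference of -0.15 (limma adjusted p = 0.119). Abi3, which is known mainly from blood cells, was within the background range in both lines at 7.08 ± 0.13 and 7.09 (mean log2 intensity ± SD), its 3 knockout values being identical.

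**Figure D2:**
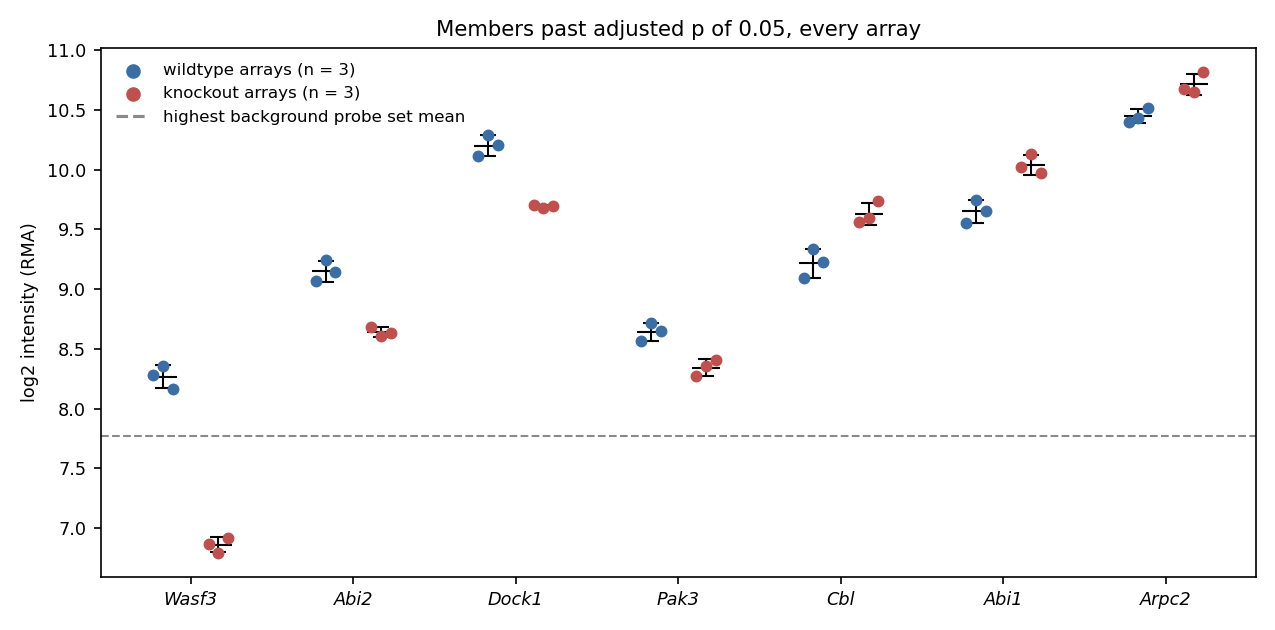
Log2 intensity in each of the 6 arrays for the 7 members past the threshold, with the mean and SD of each group (n = 3) and the highest background probe set mean as a dashed line. The groups do not overlap for any of these genes, and the Wasf3 knockout values, 6.80 to 6.92, are the only ones below the line at 7.78.

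Promoter stretches are shown for a pair of members that fell, Wasf3 and Dock1, and a pair that rose, Abi1 and Cbl. They are the 250 bases before a RefSeq start in assembly GRCm38.p6, written 5′ to 3′ along the gene, with CG dinucleotides in capitals. The stretch of Wasf3 is chr5:146384756-146385005 on the plus strand, that of Dock1 chr7:134670437-134670686 on the plus strand, that of Abi1 chr2:23040242-23040491 on the minus strand and that of Cbl chr9:44234047-44234296 on the minus strand.
Wasf3: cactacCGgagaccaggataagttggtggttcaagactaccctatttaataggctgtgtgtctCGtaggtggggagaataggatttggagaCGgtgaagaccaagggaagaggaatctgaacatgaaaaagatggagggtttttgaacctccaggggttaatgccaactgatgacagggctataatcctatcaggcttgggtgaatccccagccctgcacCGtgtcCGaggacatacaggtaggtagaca
Dock1: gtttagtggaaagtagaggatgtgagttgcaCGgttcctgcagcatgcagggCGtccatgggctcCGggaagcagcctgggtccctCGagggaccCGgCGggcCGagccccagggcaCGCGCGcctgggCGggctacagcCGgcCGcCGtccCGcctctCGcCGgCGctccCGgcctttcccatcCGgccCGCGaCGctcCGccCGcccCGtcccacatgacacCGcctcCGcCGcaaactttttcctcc
Abi1: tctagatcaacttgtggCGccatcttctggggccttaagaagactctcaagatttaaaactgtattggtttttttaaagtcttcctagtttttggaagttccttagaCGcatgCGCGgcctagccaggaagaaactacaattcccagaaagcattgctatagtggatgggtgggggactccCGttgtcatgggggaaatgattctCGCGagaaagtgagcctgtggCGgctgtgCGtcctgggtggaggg
Cbl: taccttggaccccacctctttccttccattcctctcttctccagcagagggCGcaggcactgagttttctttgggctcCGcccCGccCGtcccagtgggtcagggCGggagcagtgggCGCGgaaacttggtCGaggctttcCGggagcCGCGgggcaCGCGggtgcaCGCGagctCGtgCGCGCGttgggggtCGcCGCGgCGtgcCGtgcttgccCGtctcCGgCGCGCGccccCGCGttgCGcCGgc
These stretches hold 5 CG dinucleotides for Wasf3, 29 for Dock1, 9 for Abi1 and 33 for Cbl. RefSeq starts were found for 29 of the measured members, with 40 stretches in all, whose median of 20 compares with 6 over all 32851 stretches in the table. The GC box GGGCGG, searched on both strands, was in 22 of the 40 member stretches and in 32.7% of all stretches. GGAATG, the core of the TEAD site, was in 4 of them, those of Cbl, Arpc2, Sh3pxd2b and Wasf1, and in 12.6% of all stretches, again on both strands. The CArG box bound by serum response factor was in 1, that of Arpc4, and in 1.47% of all. The stretches in the table were not narrowed to protein-coding or brighter genes, and some members have several stretches. These counts and matches are thus a description of the letters and no result about the list.

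The WASP proteins and their WIP chaperones, which Nck binds directly, did not pass. Wasl, which encodes N-WASP, read 9.90, 9.99 and 9.92 in wildtype and 9.85, 9.92 and 9.92 in knockout, a difference of -0.04 with a 95% confidence interval of -0.16 to 0.07 (limma adjusted p = 0.743). Was, the blood cell family gene, was within the background range in both lines at 7.01 ± 0.11 and 7.04 ± 0.03, as was Wipf3. Of the 10 blood cell markers measured, 8 including Ptprc were within that range in both lines, while Csf1r was lower and Cd68 higher in knockout. Wipf1, the gene of WIP itself, read 8.02, 8.01 and 7.96 in wildtype and 8.12, 8.12 and 8.13 in knockout. These groups did not overlap and differed by 0.13 (95% confidence interval 0.02 to 0.23, adjusted p = 0.125). Wipf1 passed with quantile normalization (0.15, adjusted p = 0.0447). Wipf2, its widely expressed relative, differed by -0.07 (-0.20 to 0.06).

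PAK kinases of the subgroup with Pak2 and Pak3, whose proline-rich stretch binds Nck, act downstream of Rac and Cdc42. They form a unit with GIT and PIX at adhesions. All 5 measured genes listed with this unit, Pak4 of the other subgroup among them, had a lower mean in knockout. Their median difference was -0.15, and Pak3 passed. Of the 11391 genes with a mean above the background range, 6029 had a negative difference. Pak3, on the X chromosome, read 8.57, 8.71 and 8.65 in wildtype and 8.27, 8.36 and 8.41 in knockout. The groups did not overlap, and the log2 fold change was -0.30 (SE 0.06, limma adjusted p = 0.0239). The median of 234 brighter protein-coding genes on that chromosome was -0.25. With chromosome medians taken off, Pak3 differed by -0.05 (adjusted p = 0.608). The call was also lost without wildtype replicate 2 (adjusted p = 0.0605), wildtype replicate 3 (0.104), knockout replicate 1 (0.0925) or knockout replicate 2 (0.085).

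Pak4, a kinase of the other PAK subgroup, read 8.52, 8.44 and 8.44 in wildtype and 8.33, 8.29 and 8.31 in knockout, a difference of -0.16 (limma adjusted p = 0.0805). Git1, the scaffold that carries PIX and PAK to adhesions, read 8.98, 9.00 and 8.94 against 8.80, 8.82 and 8.86, a difference of -0.15 (adjusted p = 0.0897). Neither passed, though the groups of each did not overlap. Both passed when brighter genes alone were tested (adjusted p = 0.0364 and 0.0408). With chromosome medians taken off, Git1 differed by -0.01 and Pak4 passed at -0.21 (adjusted p = 0.0288). Pak2 (-0.07) and the PIX gene Arhgef7 (-0.02) had overlapping groups, and their sign turned, Pak2 to 0.09 with chromosome medians taken off and Arhgef7 to 0.02 with quantile normalization.

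Dock1, the exchange factor that with an Elmo partner loads Rac with GTP, fell. It read 10.11, 10.29 and 10.20 in wildtype and 9.70, 9.68 and 9.69 in knockout. The knockout values were nearly level with each other, and all lay below the lowest wildtype value. The log2 fold change was -0.51 (SE 0.06, limma adjusted p = 0.00239), a 1.43-fold lower level, and the call held when any array was left out (adjusted p from 0.00397 to 0.0195) and in each of the 17 settings tried. The Elmo partners did not pass: Elmo2 differed by 0.09 (95% confidence interval -0.04 to 0.22), and both Elmo1 means lay within the background range. The Ras exchange factor genes Sos1 and Sos2, whose products bind SH3 adaptors, differed by -0.16 and 0.11 with overlapping groups.

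The Arp2/3 complex showed no common direction. Among its 6 measured genes limma called 1 higher, none lower and 5 neither way, with 3 at an unadjusted p under 0.05 in either direction and with 3 positive and 3 negative differences. Arpc2, which encodes a central subunit that contacts the mother filament, read 10.40, 10.43 and 10.51 in wildtype and 10.67, 10.65 and 10.81 in knockout. Its log2 fold change was 0.27 (SE 0.06, limma adjusted p = 0.042). This call was lost without any one of the 6 arrays (adjusted p from 0.0809 to 0.107), as it was when all probe sets were tested (0.0694).

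Actr3, the gene of the actin-related subunit Arp3, read 11.03, 10.96 and 11.07 in wildtype and 10.94, 10.85 and 10.70 in knockout, a difference of -0.19 (95% confidence interval -0.37 to -0.02, limma adjusted p = 0.171). Arpc1a, one form of the subunit that binds the activating tail, read 9.41, 9.46 and 9.42 against 9.23, 9.27 and 9.31, a difference of -0.16 (adjusted p = 0.0728). Both genes were lower in all 3 knockout arrays without passing, and Arpc1a passed with brighter genes only (adjusted p = 0.0326). Arpc4 differed by 0.12, Arpc5 by 0.03 and Arpc5l, the alternative form of Arpc5, by -0.06, each with an interval that included 0.

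Of the cortactin and podosome scaffold genes none passed, at limma adjusted p from 0.059 to 0.88 and with unadjusted p under 0.05 for 2 of 3. Cttn, whose product binds Arp2/3 and stabilizes branches, read 9.85, 9.82 and 9.78 in wildtype and 10.04, 9.97 and 9.97 in knockout, a difference of 0.18 (95% confidence interval 0.07 to 0.29, adjusted p = 0.059). Sh3pxd2b, which encodes the scaffold Tks4, read 8.30, 8.38 and 8.39 against 8.46, 8.54 and 8.59, a difference of 0.17 (adjusted p = 0.101). Both were higher in every knockout array, and both passed with brighter genes only (adjusted p = 0.0461 for Sh3pxd2b). Sh3pxd2a, the gene of Tks5, differed by -0.02 in its brighter probe set and by 0.08 in the other.

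Among the phosphotyrosine partners Cbl, a ubiquitin ligase for receptor tyrosine kinases, rose. It read 9.09, 9.33 and 9.23 in wildtype and 9.56, 9.59 and 9.73 in knockout, a rise of 0.41 on the log2 scale (SE 0.08, limma adjusted p = 0.02) with no overlap of the groups. A second Cbl probe set read 8.80, 9.31 and 9.12 against 9.41, 9.54 and 9.59. It showed the same direction without overlap, at 0.44, and did not pass (adjusted p = 0.0923). The call was also lost without wildtype replicate 3 (adjusted p = 0.0834) and on leaving out knockout replicate 1 (0.057), 2 (0.0676) or 3 (0.0634). Cblb, its close relative, differed by -0.12 (95% confidence interval -0.29 to 0.04). Rasa1, the gene of a Ras GTPase-activating protein, had the widest spread of the list, from 9.05 to 9.43 in wildtype and from 9.13 to 9.49 in knockout, and Dok1, an adaptor that binds it, differed by -0.02.

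Related genes within a family were compared with each other by their differences. For each pair the difference between both genes was taken within each array, which cancels any shift of the whole array, and the exact two-sided permutation test over the 6 arrays was applied. With 3 arrays against 3 that test cannot go below 0.1, so no pair could pass. Of 11 pairs measured, 8 had groups that did not overlap, each at exact p = 0.1 and 0.138 after adjustment over the pairs. Among single genes, 27.4% of all and 50.0% of the brighter ones did not overlap. No such share was taken over other pairs of genes, and several pairs hold a gene whose own groups do not overlap. The count is therefore no result about the pairs. The zero of a difference within a pair has no meaning across probe sets, and its change between the groups is what is described. Wasf2 less Wasf3 moved by 1.56, from between 0.59 and 0.76 in wildtype arrays to between 2.17 and 2.24 in knockout arrays. Wasf1 less Wasf3, which shares the Wasf3 values, moved by 1.58. Abi1 less Abi2 moved by 0.90, from between 0.48 and 0.51 to between 1.33 and 1.53, and Cbl less Cblb by 0.54. Sos1 less Sos2 moved by -0.27, Wipf1 less Wipf2 by 0.20, Sh3pxd2a less Sh3pxd2b by -0.20 and Arpc5 less Arpc5l by 0.08. With the other Sh3pxd2a probe set, that of the larger spread, Sh3pxd2a less Sh3pxd2b moved by -0.09 and its groups overlapped. Wasl and Was, Elmo1 and Elmo2, and Wasf1 and Wasf2 had overlapping groups. Was, Elmo1 and Wasf1 lay within the background range in both lines, where the measured difference can understate a change. The overlap thus does not show that the genes of these pairs changed alike.

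**Figure D3:**
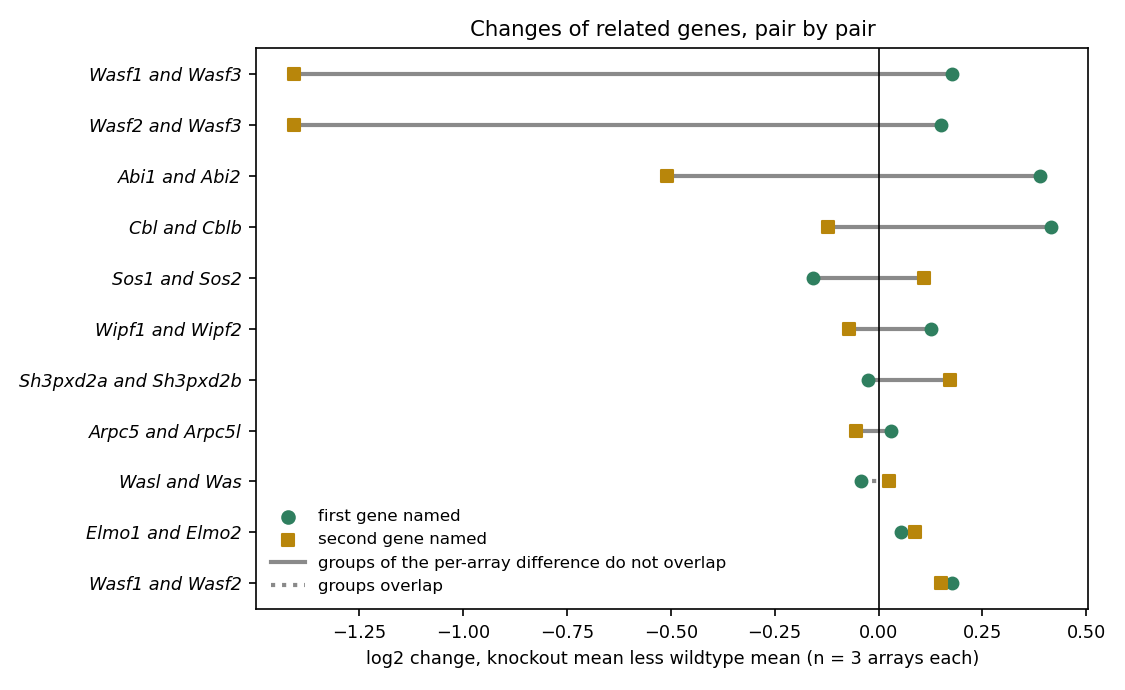
Log2 change of both genes of 11 pairs of related members, knockout mean less wildtype mean over 3 arrays each; a solid line marks the 8 pairs whose per-array difference does not overlap between the groups. The pairs with Wasf3 lie farthest apart, at 1.58 and 1.56, followed by Abi1 and Abi2 at 0.90.

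The median difference between the lines also varied from chromosome to chromosome, and its part in the small differences among the members was not tested. The median log2 fold change of brighter protein-coding genes ran from -0.25 on the X chromosome to 0.12 on chromosome 15, leaving out the Y chromosome with 1 such gene. Taking these medians off moved the median of the members from -0.02 to 0.09, and 6 rose and 4 fell. Wasf3, Abi2, Dock1, Cbl, Abi1 and Arpc2 kept their calls at -1.35, -0.41, -0.56, 0.38, 0.43 and 0.36. Pak4 then fell in place of Pak3, and Sh3pxd2b (0.31), Wipf1 (0.17) and the background-range Was (0.27) passed as higher. An offset taken from brighter genes was also applied to dim ones such as Was.

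**Figure D4:**
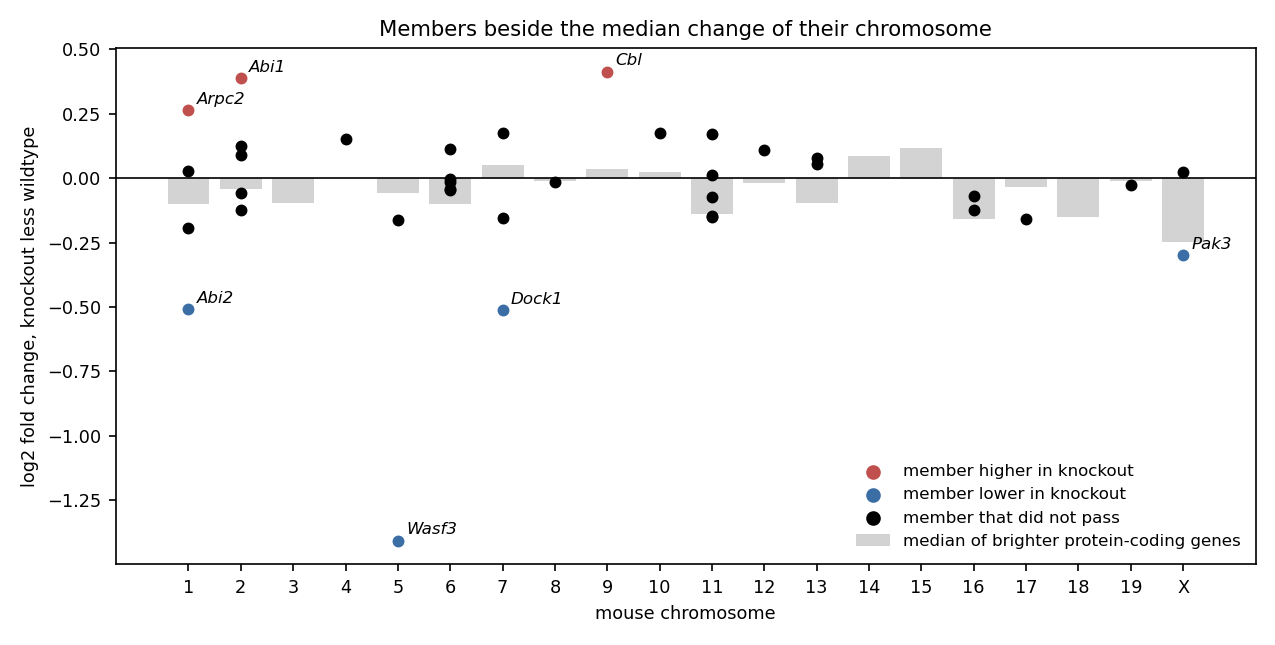
Log2 fold change of the 37 members by mouse chromosome, with grey bars for the median of brighter protein-coding genes on each chromosome. Pak3, at -0.30, lies close to the X chromosome median of -0.25, while Wasf3, Abi2 and Dock1 lie well below the bars of chromosomes 5, 1 and 7.

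Other genes of actin assembly were read from the same fit, in lists chosen for their function. Earlier results of these data were known when the lists were made, so the shares called are a description and were not tested. The counts of the lists are to be read beside the 12.0% of all genes that changed (5.05% higher, 6.90% lower) and the 23.5% of brighter genes (10.1% higher, 13.5% lower). A first list joins BAR-domain proteins that curve membrane, several of which bind N-WASP or WAVE, with the Cdc42 effectors of the Cdc42ep family, which bind septins. Of the 21 with a value, limma called 10 higher, none lower and 11 neither way, with 15 at an unadjusted p under 0.05 and a median of 0.28. The share called was 47.6%, and of the 5 Cdc42ep genes Cdc42ep3 alone passed. Without wildtype replicate 3 there were 6 that rose, and without wildtype replicate 1 there was 1 that fell. Cdc42ep3, an effector of Cdc42, rose from 9.64 ± 0.08 to 11.00 ± 0.03 (mean log2 intensity ± SD, n = 3 each), and Mtss1, which bends membrane outward, from 8.48 ± 0.12 to 9.70 ± 0.04. Srgap3, a Rac-directed GTPase-activating protein with an inverse F-BAR domain, rose by 1.02 (SE 0.07, limma adjusted p = 0.000322).

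Among 28 genes for actin itself and for filament turnover limma called 9 higher and 1 lower, leaving 18 uncalled. The share called was 35.7%, beside 12.0% of all and 23.5% of brighter genes, and the median was 0.09. Cap2, a cyclase-associated protein that recharges actin monomers, rose by 0.80 from a background-range wildtype mean, the depolymerizing factor gene Dstn by 0.79 and the monomer-binding thymosin gene Tmsb4x by 0.75 (limma adjusted p from 0.000208 to 0.0038). The gene that fell was the profilin gene Pfn2 (-0.34, named after its value was seen). It did not pass without wildtype replicate 1, 2 or 3 or knockout replicate 1 or 2, when the count of falls was 0.

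The formins, which build unbranched filaments, went both ways. With other nucleators they made 18 genes, of which 3 were called higher, 3 lower and 12 neither way, and the median was 0.05. The share called was 33.3%, beside 12.0% of all and 23.5% of brighter genes. Fhod3, a formin of muscle sarcomeres, had means of 10.04 ± 0.10 and 8.32 ± 0.05 and so fell by 1.72 on the log2 scale (SE 0.06, limma adjusted p = 3.04e-05). Lmod1, the smooth muscle leiomodin gene, rose by 0.87 from a background-range wildtype mean and Fmnl2, a formin of lamellipodia, by 0.71.

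Other proteins that switch Arp2/3 on or off were covered by 20 genes, with 1 higher, 3 lower, 16 uncalled and a median of -0.01. At 4 of 20 the share called lay between the 12.0% of all genes and the 23.5% of brighter ones, so this count is no result about the list. Arpin, the gene of an Arp2/3 inhibitor, fell by 0.37 on the log2 scale (limma adjusted p = 0.00768). Washc2, of the endosomal WASH complex, differed by -0.29, and the other WASH gene to pass, Washc5, by 0.23. The count of falls was 1 when any array but wildtype replicate 1 was left out, and no gene rose without wildtype replicate 3 or knockout replicate 1 or 2.

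Podosomes and invadopodia, the adhesive and matrix-degrading actin structures, were covered by 19 genes, with 6 higher, 3 lower, 10 uncalled and a median of 0.05. The share called was 47.4%, beside 12.0% of all and 23.5% of brighter genes. Fscn1, the filament bundler fascin, rose from 9.36 ± 0.03 to 10.85 ± 0.14, and the membrane collagenase gene Mmp14 from 10.55 ± 0.10 to 11.36 ± 0.04. Adam19, a membrane protease gene, rose by 0.79 from a background-range wildtype mean. The fallen genes numbered 1 without knockout replicate 1 or 2. Beside all these lists, smooth muscle and fibroblast markers were higher in knockout, among them Acta2 from 10.07 ± 0.19 to 12.90 ± 0.07 and Tagln from 7.81 ± 0.06 to 10.52 ± 0.35, and the part of this difference was not tested.

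**Figure D5:**
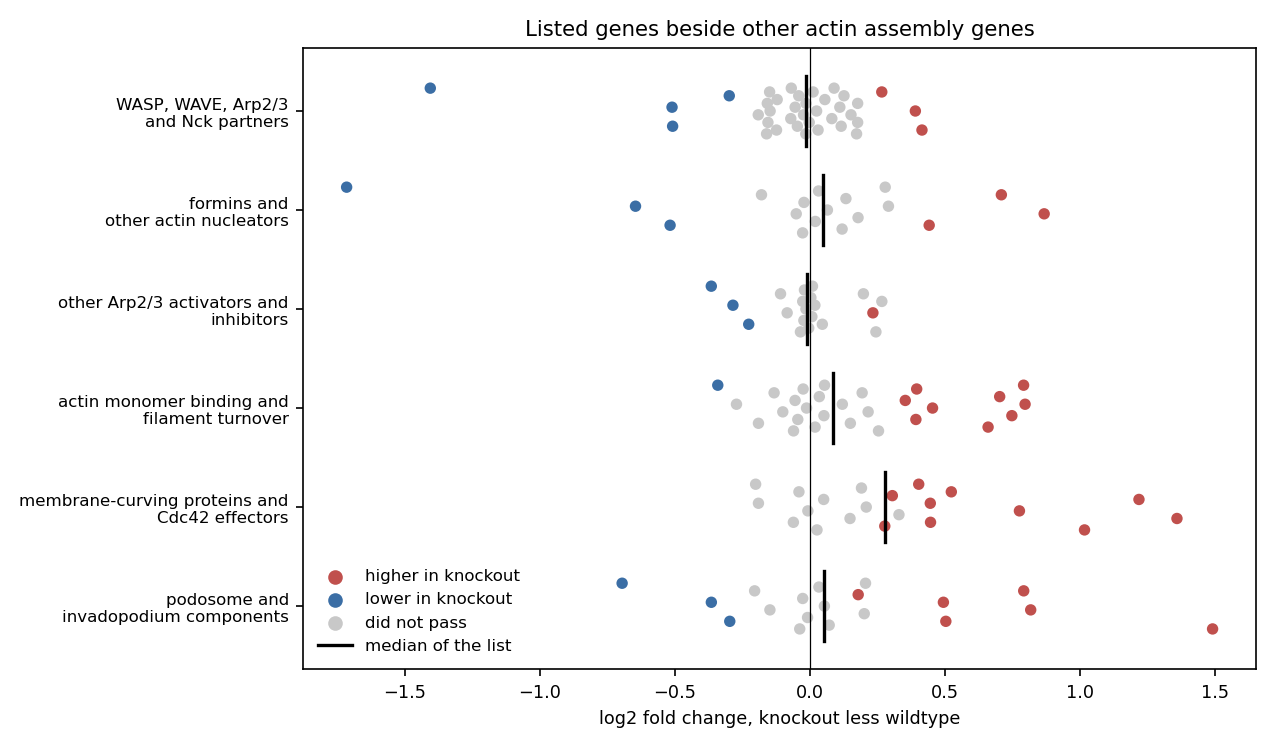
Log2 fold change of the 37 listed genes and of 5 lists of other actin assembly genes, each point a gene and each black bar the median of its list. The listed genes centre on -0.02 with Wasf3 far to the left, and the membrane-curving proteins and Cdc42 effectors centre on 0.28 with 10 of 21 higher in knockout.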

How the data were processed

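Values for 6 arrays, 3 per genotype, were log2 probe set intensities, used as the authors deposited them. The submitters' processing notes name RMA and affy 1.44.0. Filters and the genome build were not stated there. Of 72688 probe sets, 6732 were controls by their names. Gene names came from the platform annotation, where 31258 probe sets had 1 gene and 1492 several. Symbols were updated through a RefSeq table of GRCm38.p6, used for names, chromosomes and the protein-coding label only. Of 30702 genes, 30700 were in it. No filter on dim genes was applied. Near-identical paralogs can share probes. Precision is limited by the number of arrays.

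The test of knockout less wildtype was that of limma (version 3.58.1, R version 4.3.3, lmFit and eBayes, two-sided, no covariate), with Benjamini-Hochberg adjustment over all genes at 0.05. The code was tested on simulated data with known changes. The members and lists were chosen with earlier results of these data known. Values in every array are given for each member that passed and for the leading member of each complex without one, and up to 3 leading genes are named per other list; other genes were named after their values were seen. Promoter stretches came from RefSeq. Alternatives left out each array, added a replicate block, an intensity trend or array weights, changed the normalization, the probe sets or the threshold, dropped dim or tied genes, and took off chromosome medians. 1 further gene list is not reported here.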

Additional observations from a re-analysis of the deposited data

How the results depend on the processing

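The alternatives were run one at a time. Of the 118 values of the 7 members past the threshold, 90 kept their direction and call, 28 kept their direction and lost the call, and 0 changed direction. Of the 503 values of the other members, 453 kept both, 25 passed the threshold (12 of them with array weights) and 25 changed sign, none of these past the threshold. Leaving out each array in turn gave 877 to 1450 higher and 1197 to 2010 lower genes over all genes, against 1551 and 2118 with all arrays, and 0 to 3 members higher and 3 to 4 lower. It gave 0 to 1 higher and 1 to 3 lower genes among the other Arp2/3 regulators, 0 to 1 lower turnover genes, 6 to 11 higher and 0 to 1 lower membrane-curving and Cdc42 effector genes and 1 to 3 lower podosome genes. The lowest member count of 0 higher came without wildtype replicate 3 and without knockout replicate 1 or 2, and the count was 1 without knockout replicate 3. With the replicate block, 0 of the other Arp2/3 regulators were higher and no other count here moved by over 1.5 times. Deviations from the group means correlated at 0.35, 0.28 and 0.04 for replicates 1, 2 and 3, and at -0.34 to 0.05 between unlike numbers. Like numbers thus correlated above unlike ones for replicates 1 and 2 and not for replicate 3. The main fit did not take the numbers as pairs, and with the replicate block 3 members rose and 4 fell. Array weights gave 5107 higher and 5063 lower genes, 9 and 10 members, 7 higher and 5 lower formins and other nucleators, 4 higher other Arp2/3 regulators, 14 higher and 4 lower turnover genes and 2 lower membrane-curving genes. Those weights put 54.8 on wildtype replicate 3 and are not relied on. Quantile normalization gave 5 members higher, 2 lower turnover genes and 2 lower membrane-curving genes. With arrays centred on their median, 0 members and 0 other Arp2/3 regulators were higher, and 1 of the latter and 0 turnover genes were lower. Testing brighter genes only gave 5 members higher of 30, 2 lower turnover genes and 2 lower membrane-curving genes. Testing all probe sets gave 2500 higher. With chromosome medians taken off, 2800 genes and 6 members were higher, the member median was 0.086, 5 formins and other nucleators and 0 other Arp2/3 regulators were higher, and 1 other Arp2/3 regulator, 0 turnover genes and 1 podosome gene were lower. At a threshold of 0.01 there were 850 higher and 1098 lower genes, 0 members higher, 0 higher and 1 lower other Arp2/3 regulators, 0 lower turnover genes and 1 lower podosome gene. Where no construction of the alternative shows it (fewer genes or arrays, a stricter threshold), the cause was not tested.

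Members that changed sign when an array was left out were Was (-0.042 to 0.060), Wipf3 (-0.048 to 0.051), Abi3 (-0.058 to 0.074), Brk1 (-0.13 to 0.015), Arhgef7 (-0.040 to 0.0089), Sh3pxd2a (-0.047 to 0.010) and Rasa1 (-0.029 to 0.19). Array weights turned Was (-0.044), Wipf3 (0.019) and Sh3pxd2a (0.020). Quantile normalization turned Abi3 (-0.0025), Arhgef7 (0.017), Sh3pxd2a (0.013) and Dok1 (0.0045), and taking the probe set with the largest spread turned Sh3pxd2a (0.082). Taking off chromosome medians turned Wasl (0.060), Wipf2 (0.068), Wipf3 (0.099), Brk1 (0.055), Pak2 (0.088), Dok1 (0.086) and Cblb (0.035). Signal over background limits Was, Wipf3, Wasf1, Abi3 and Elmo1, within the background range in both lines, and the knockout means of Wasf3 and Cyfip2, where the measured fold can understate a change. With 3 arrays a group, the number of arrays limits the precision, and the p-values measure the spread between replicates within each genotype. The labels do not say whether each genotype is 1 clone, so a spread between clones is not known to be included.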
